A study of Mus musculus with 6 samples.

Results

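Intermediate filament genes expressed in glia and neurons were described in 2 magnetically sorted fractions of neonatal mouse cerebellum. The members are all probes on the array that carry the gene name Gfap, Vim, Nes, Synm, Des, Nefl, Nefm, Nefh, Ina or Prph, which gave 10 genes and 18 probes among 24082 gene names and 55681 probes. Gfap, Vim, Nes, Synm and Des were taken as glial or mesenchymal members, and Nefl, Nefm, Nefh, Ina and Prph as neuronal members.

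The samples were wild-type CD1 mice of either sex at postnatal days 1 to 3 by the labels, whereas the methods name an earlier stage and a C57BL/6 background. Cerebella were pooled, 50000 cells entered each sample, and each fraction had 3 biological replicates, each on 1 single-dye array. A+/G+ cells carry ACSA-2, an epitope of the sodium pump subunit ATP1B2, and GLAST, a glutamate transporter of astrocytes and their precursors. They were bound with anti-ACSA-2 beads, without a step that removes neurons. A-/G+ cells carry GLAST only. They were selected by GLAST after beads against L1CAM, ACSA-2, CD45, PSA-NCAM and Ter119 had depleted ACSA-2+ cells, neurons, leukocytes and erythroid cells. The fractions therefore differ both in ACSA-2 and in the number of sorting steps.

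Intermediate filament proteins share a coiled rod and assemble into non-polar cables whose composition follows cell type and maturity. Radial glia and neural precursors use nestin and vimentin, to which synemin can add, whereas astrocytes take up GFAP as they mature. Neurons first use alpha-internexin and later the neurofilament light, medium and heavy chains, peripherin is typical of peripheral and some brainstem neurons, and desmin is the filament of muscle and pericytes. Levels are normalized log2 intensities (the scanner's brightness of a spot on the log2 scale, quantile normalized), and every difference given is the A+/G+ mean level less the A-/G+ mean level.

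The A-/G+ arrays were dimmer and more uneven than the A+/G+ arrays. The 75th percentile of intensity was 332 to 334 in A+/G+ but 56.6, 113 and 251 in A-/G+ replicates 1, 2 and 3, and 26476 to 26655 probes were well above background in A+/G+ against 18340 to 24730 in A-/G+. All A+/G+ arrays were on 1 slide and scan and all A-/G+ arrays on another, so fraction, slide and scan cannot be told apart. Atp1b2 and Slc1a3, the genes of the antigens that define the fractions, were well above background on every array. Of these, Atp1b2 was 2.16 higher in the A+/G+ fraction (limma, adjusted p = 0.00725), and Slc1a3, which encodes GLAST, differed by -1.19 without passing the adjusted limit (adjusted p = 0.0733, limma). Of the genes of the depletion antigens, L1cam exceeded background clearly on all 3 arrays of A+/G+ and on 1 of A-/G+ without passing (adjusted p = 0.0968, limma), and Ptprc, which encodes CD45, on 0 of 6 arrays. Ncam1, the gene of the protein in PSA-NCAM, was well above background on all 6 arrays. Its difference was 0.15 (adjusted p = 0.572, limma). All 12 astroglial marker genes were well above background on all 6 arrays. A probe was called at an adjusted p of at most 0.05 (limma with Benjamini-Hochberg adjustment over all probes) with medians at least 4-fold apart, giving 851 calls for A+/G+ and 222 for A-/G+. With arrays aligned at the 75th percentile instead of quantile normalized, the calls were 604 and 938, which also moved the median difference of all genes from -0.03 to -0.40.

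Among the glial members, Gfap was higher in A+/G+ by about 8-fold, whereas Nes was higher in A-/G+ by about 3-fold. Each gene is given by its brightest probe. Of the 10 members, 1 was called higher in A+/G+ (Gfap), against 2.62% of all genes, and 0 were called higher in A-/G+, against 0.44% of all genes. At the same limits but an unadjusted p under 0.05, limma gave 5 and 0 members (A+/G+ and A-/G+; 4.09% and 0.523% of all genes), and the methods' t-test (the plain test per probe that the study names, with adjustment) called 0 and 0. By the adjusted p alone, 2 members passed as higher in A+/G+ (Gfap and Des; 7.48% of all genes) and 1 as higher in A-/G+ (Nes; 5.12% of all genes). The arrays of the fractions did not overlap for 7 members higher in A+/G+ (19.1% of all genes) and 2 higher in A-/G+ (23.3% of all genes). The median difference was 2.26 over the 10 members and 1.40 over the 5 glial members, compared with -0.03 over all 24082 genes. In these bulk samples, fewer cells of a type and less RNA per cell cannot be told apart.

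**Figure D1:**
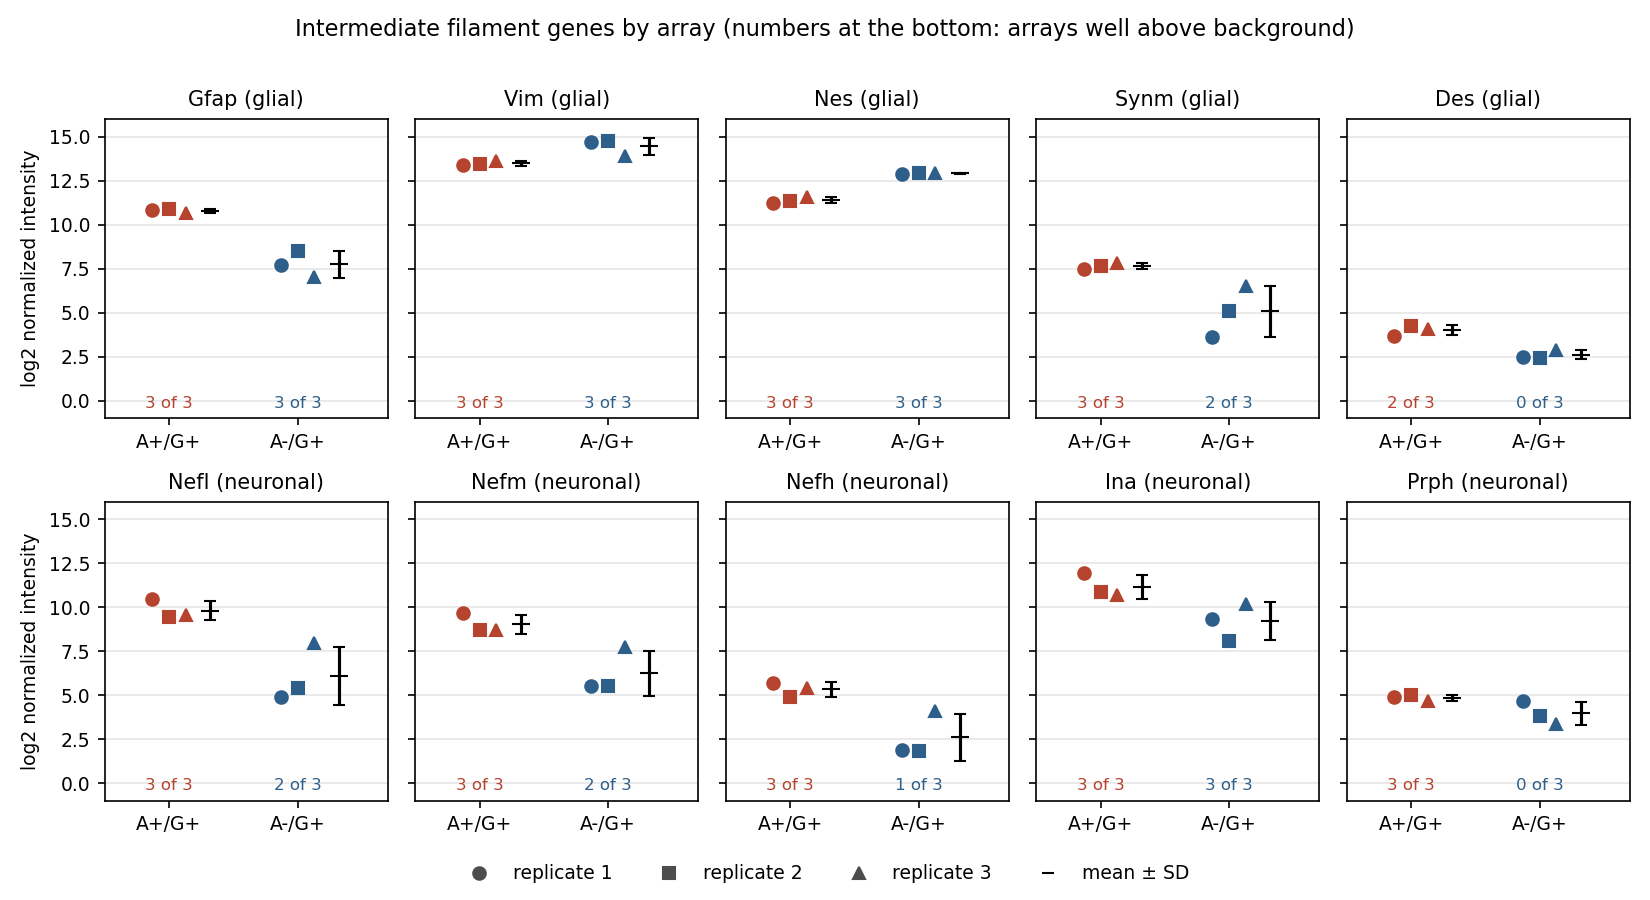
Normalized log2 intensity of the 10 members on each array (brightest probe of each gene), with the mean ± SD of each fraction (n = 3) and the number of arrays on which the probe was well above background. Gfap lay between 10.64 and 10.86 in A+/G+ and between 7.01 and 8.51 in A-/G+, Nes was the reverse, and only Prph overlapped between the fractions.

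Gfap encodes the main filament protein of astrocytes. It was measured by 3 probes on the minus strand of chromosome 11 of mm9, of which 1 is annotated to transcript variant 2 (NM_010277) and 2 to variant 1 (NM_001131020). The first 30 bases of each 60-base probe are shown because the probes are annotated to different transcript variants.
Gfap variant 1, chr11:102751813-102751872: ggttatattaacagagctagcctatgctaa
Gfap variant 2, chr11:102748864-102748923: tttgaggaactgaaacgtgttgtgttcaag
Gfap variant 1, chr11:102752726-102752785: caaaaggctcacaatacaagttgtcccaat

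The brightest Gfap probe, the variant 1 probe whose sequence starts with ggttatattaac, had levels of 10.84, 10.86 and 10.64 in A+/G+ replicates 1, 2 and 3 and of 7.72, 8.51 and 7.01 in A-/G+ replicates 1, 2 and 3. All A+/G+ arrays were within 0.21 of each other, whereas the A-/G+ arrays spread over 1.51 and lay at least 2.13 below. The means differed by 3.03 (standard error 0.40; limma, adjusted p = 0.0182), with medians 8.70-fold apart. Without quantile normalization, its intensities were 2982, 3218 and 2632 in A+/G+ and 59.6, 210.4 and 166 in A-/G+.

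The variant 2 probe had levels of 10.22, 10.38 and 10.27 in A+/G+ and of 7.43, 7.43 and 6.49 in A-/G+. It was higher in A+/G+ by 3.18 (standard error 0.29, adjusted p = 0.00826, limma) with medians 7.19-fold apart. The dimmer variant 1 probe had levels of 6.95 to 7.20 in A+/G+ and of 3.25, 4.96 and 3.54 in A-/G+, where no array had it well above background. In the reported setting A+/G+ cells held at least 4.51-fold more of it (adjusted p = 0.0257, limma). This takes as the A-/G+ value of each array the higher of its own signal and the dimmest signal that still counted as well above background. The bound does not hold under other processing: with normexp background correction the medians were 2.83-fold apart and the probe was not called. In the reported setting all 3 Gfap probes were thus called. With them, 3 of the 18 member probes were called higher in A+/G+ (1.53% of all probes) and 0 of 18 higher in A-/G+ (0.399% of all probes).

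The Gfap probes were also compared within each array. On A+/G+ arrays, the brightest variant 1 probe was 0.49 ± 0.12 (SD, n = 3) above the variant 2 probe. On A-/G+ arrays this within-array difference was 0.63 ± 0.41 (SD, n = 3), a change of -0.14 (exact permutation test, two-sided, p = 0.80, where no p below 0.10 was possible). The probes differed in how firmly they held. Leaving out 1 array at a time, the variant 2 probe was called in 6 of 6 fits, with differences from 2.86 to 3.35, and it was also called by the methods' t-test (adjusted p = 0.0297). The brightest variant 1 probe was called in 2 of 6 such fits: its adjusted p was 0.0139 without A-/G+ replicate 3 and 0.0196 without A-/G+ replicate 2. Without A-/G+ replicate 1 or any single A+/G+ array its adjusted p was 0.0555 to 0.0816 (limma). The dimmer variant 1 probe was also called in 2 of 6 such fits, with an adjusted p of up to 0.105 (limma). The methods' t-test did not call it (adjusted p = 0.0645).

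The stretch around the annotated Gfap start in RefSeq (GRCm38.p6, chr11:102897171-102897450, minus strand) and that of Nes (chr3:87970843-87971122, plus strand) are shown since these genes passed the adjusted limit in opposite directions. Each runs from 250 bases before the start to 30 bases after it, with motif matches in capitals.
Gfap: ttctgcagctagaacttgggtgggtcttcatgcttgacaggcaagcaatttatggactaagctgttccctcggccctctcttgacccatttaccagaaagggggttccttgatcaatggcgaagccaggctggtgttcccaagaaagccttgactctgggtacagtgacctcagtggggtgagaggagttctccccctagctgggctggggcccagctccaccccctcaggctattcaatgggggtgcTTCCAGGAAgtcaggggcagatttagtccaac
Nes: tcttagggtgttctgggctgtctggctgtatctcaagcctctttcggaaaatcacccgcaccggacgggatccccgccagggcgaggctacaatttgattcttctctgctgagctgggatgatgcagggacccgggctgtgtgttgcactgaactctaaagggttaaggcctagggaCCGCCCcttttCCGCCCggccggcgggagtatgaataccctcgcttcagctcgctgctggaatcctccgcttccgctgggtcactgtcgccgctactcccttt

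Of 5 motifs searched on both strands, the Gfap stretch held 1 match to TTCNNNGAA, the palindrome that STAT factors are known to bind, as do 7.83% of the 32851 stretches of this length in the table. The Nes stretch held 2 matches to GGGCGG, the GC box (34.7% of stretches). Neither held TATAAA, the TATA box (13.1%), CCAAT (36.1%) or TTGGC, a site bound by NFI factors (44.7%), and the last of these motifs can overlap in ATTGGC. Stretches were found for 7 of the 10 members, namely Gfap, Vim, Nes, Synm, Des, Ina and Prph. A match is a description of letters, and these arrays measured no binding.

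Nes encodes nestin, the filament protein of neural stem and precursor cells. Its probe lies on the plus strand of chromosome 3 of mm9 (chr3:87784303-87784362) and starts with tcatcatctcagcctgctgagatcttgttt. Levels were 11.21, 11.37 and 11.57 in A+/G+ and 12.89, 12.96 and 12.92 in A-/G+. Nes was the member with the tightest A-/G+ arrays, within 0.07 of each other, and every A-/G+ array was at least 1.31 above every A+/G+ array. It was lower in A+/G+, with a difference of -1.54 (standard error 0.11, adjusted p = 0.00510, limma) and medians 2.93-fold apart, below the 4-fold limit. Its adjusted p stayed within the limit in each of the 6 fits without 1 array (0.0104 to 0.0331). The order rests on scaling the arrays: before it, the intensities were 3845, 4570 and 5054 in A+/G+ and 2170, 4779 and 10803 in A-/G+, which overlap, and after it both scalings tried put Nes higher in A-/G+.

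Vim encodes vimentin, the filament protein that radial glia, Bergmann glia and mesenchymal cells share. Its probe (chr2:13504232-13504291 of mm9, plus strand) starts with gcagtttttcaggagcgcaagatagatttg. Levels were 13.37, 13.44 and 13.61 in A+/G+ and 14.70, 14.76 and 13.87 in A-/G+, so that the fractions did not overlap but A-/G+ replicate 3 lay 0.26 from the nearest A+/G+ array. The difference was -0.97 (standard error 0.27, 95% interval -1.66 to -0.27), and it did not pass the adjusted limit (adjusted p = 0.103, limma). Without A-/G+ replicate 3 it was -1.26 and passed (adjusted p = 0.00876, limma). Vim passed in only 1 of 6 fits without 1 array, with an adjusted p of up to 0.276 (limma). As for Nes, the intensities before scaling overlapped, with 16192 to 19004 in A+/G+ and 8071 to 21925 in A-/G+.

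Synm encodes synemin, which joins vimentin, GFAP or desmin filaments rather than forming its own. It was measured by 5 probes on the minus strand of chromosome 7 of mm9, 4 annotated to NM_201639 and 1 to NM_183312. The brightest (chr7:74877629-74877688) had levels of 7.48, 7.62 and 7.81 in A+/G+ and of 3.63, 5.09 and 6.49 in A-/G+. The A-/G+ arrays were 2.86 apart, and each was below every A+/G+ array. The difference was 2.56 (standard error 0.75, 95% interval 0.63 to 4.50) and did not pass (adjusted p = 0.116, limma). For the other 4 probes the adjusted p was 0.112 to 0.181, and no fold is given, since 3 of them were well above background on 1 of 3 A-/G+ arrays and 1 on 0 of 3. None of the 5 overlapped between the fractions. Without A-/G+ replicate 3, the highest A-/G+ array, the brightest probe differed by 3.26 (adjusted p = 0.0269, limma). With normexp background correction it differed by 1.40 and passed (adjusted p = 0.0200, limma). That probe passed in only 1 of 6 fits without 1 array, with an adjusted p of up to 0.299 (limma).

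Des encodes desmin, and its probe (chr1:75363404-75363629 of mm9, plus strand, printed 10 times on the array) was near background. Levels were 3.69, 4.24 and 4.07 in A+/G+, well above background on 2 of 3 arrays, and 2.48, 2.44 and 2.89 in A-/G+, well above background on 0 of 3. The arrays did not overlap and the adjusted p was 0.0224 (limma), but no fold is given, since the A+/G+ mean did not exceed the lowest signals that count as well above background. Des did not pass the limit with arrays aligned at the 75th percentile (difference 0.54, adjusted p = 0.288, limma), and with normexp background correction the difference was 0.22.

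**Figure D2:**
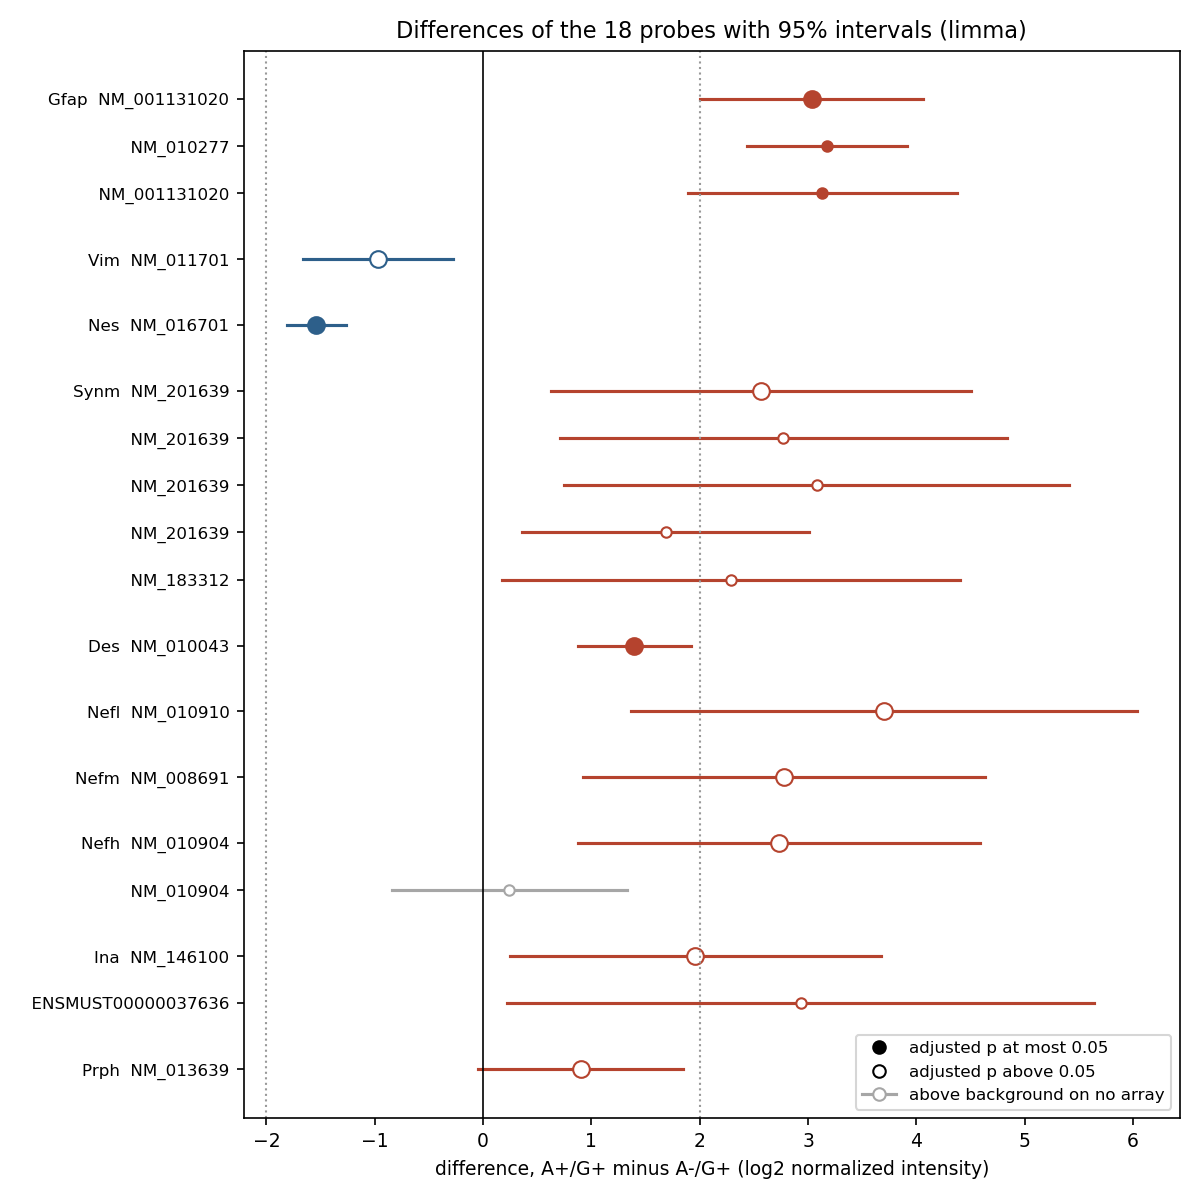
Difference A+/G+ minus A-/G+ in normalized log2 intensity of each of the 18 probes with its 95% interval from limma, the larger point marking the brightest probe of a gene, filled points an adjusted p of at most 0.05 and dotted lines a 4-fold difference. The 3 Gfap probes lay at 3.03 to 3.18, Nes at -1.54, and the probes of the neuronal members had wide intervals.

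The neuronal members were at higher levels in A+/G+ than in A-/G+ on average, but none of the 5 passed the adjusted limit. The count was 0 of 5 in each direction by limma, with 4 of 5 at an unadjusted p under 0.05, all higher in A+/G+ (16.3% of all genes in that direction), and 0 of 5 by the methods' t-test after adjustment. Nefl, Nefm, Nefh and Ina did not overlap between the fractions (19.1% of all genes in that direction), and the median difference of the 5 was 2.73. For each of these 4 genes, A+/G+ replicate 1 was the highest A+/G+ array and A-/G+ replicate 3 the highest A-/G+ array.

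Nefl encodes the neurofilament light chain, on which the other chains assemble. Its probe (chr14:68705638-68705698 of mm9, plus strand) starts with gactttcaatgtgtgctatgaatttcctcc. Levels were 10.43, 9.42 and 9.56 in A+/G+ and 4.90, 5.42 and 7.99 in A-/G+, so that A-/G+ replicate 3 was 2.83 above the mean of the other A-/G+ arrays. The difference was 3.70 (standard error 0.91, 95% interval 1.36 to 6.04, adjusted p = 0.0760, limma), larger than that of Gfap but with a wider error. Without A-/G+ replicate 3 it was 4.64 and the gene was called (adjusted p = 0.0105, limma). Nefl passed in only 1 of 6 fits without 1 array, with an adjusted p of up to 0.223 (limma).

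Nefm, the medium chain, is the neighbour of Nefl on chromosome 14, with its probe 32.6 kb away on the opposite strand (chr14:68738193-68738252 of mm9). It starts with ggaggcgatggtgctaccaaatacatcacc. Levels were 9.65, 8.71 and 8.69 in A+/G+ and 5.52, 5.50 and 7.70 in A-/G+, the same order of high and low arrays as for Nefl in both fractions except between the lowest arrays. The difference was 2.78 (standard error 0.72, adjusted p = 0.0870, limma), and it was 3.51 without A-/G+ replicate 3 (adjusted p = 0.0138, limma). Nefm passed in only 1 of 6 fits without 1 array, with an adjusted p of up to 0.244 (limma).

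Nefh, the heavy chain, which appears latest in maturing axons, was dim. Its brighter probe (chr11:4838758-4838817 of mm9, minus strand) had levels of 5.70, 4.87 and 5.41 in A+/G+ and of 1.86, 1.81 and 4.11 in A-/G+, where only replicate 3 was well above background. The difference was 2.73 (standard error 0.72, adjusted p = 0.0899, limma), and without A-/G+ replicate 3 it was 3.46 (adjusted p = 0.00948, limma). With arrays aligned at the 75th percentile it was 1.79, and with normexp background correction it was 0.71 and passed (adjusted p = 0.0289, limma). This probe passed in only 1 of 6 fits without 1 array, with an adjusted p of up to 0.247 (limma). The other Nefh probe was well above background on 0 of 6 arrays and gave no measure of the gene.

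Ina encodes alpha-internexin, the neuronal filament protein of early development. Its brighter probe (chr19:47098781-47098840 of mm9, plus strand) was well above background on all 6 arrays, with levels of 11.93, 10.86 and 10.67 in A+/G+ and of 9.32, 8.06 and 10.20 in A-/G+. A-/G+ replicate 3 was 0.47 below the lowest A+/G+ array. The difference was 1.96 (standard error 0.66, 95% interval 0.25 to 3.67, adjusted p = 0.160, limma), and the other Ina probe, which was well above background on only 1 of 3 A-/G+ arrays, did not pass either (adjusted p = 0.182, limma).

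Prph encodes peripherin, and its probe (chr15:98889042-98889101 of mm9, plus strand) was the only brightest probe of a member that overlapped between the fractions. Levels were 4.86, 5.02 and 4.68 in A+/G+, all well above background, and 4.68, 3.84 and 3.35 in A-/G+, none well above background. The adjusted p was 0.235 (limma) and the exact permutation p was 0.20 (two-sided). For the 9 members without overlap the exact permutation p was 0.10 (two-sided), which is the lowest value possible with 3 and 3 arrays.

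**Figure D3:**
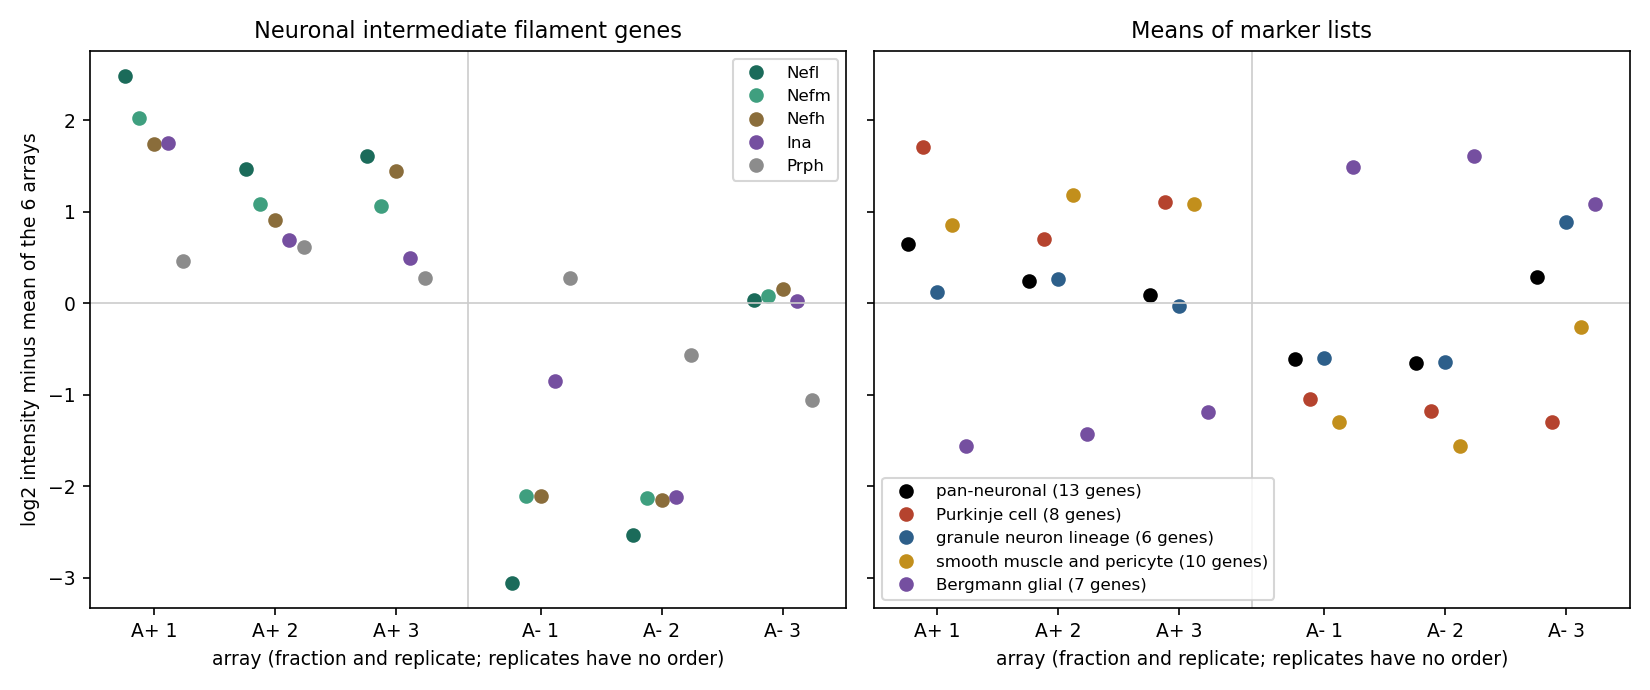
Log2 intensity minus the mean of the 6 arrays, on each array, for the 5 neuronal members (left) and for the mean of 5 marker lists (right). A-/G+ replicate 3 was the highest A-/G+ array for Nefl, Nefm, Nefh and Ina and for the pan-neuronal and granule neuron lists, but the lowest A-/G+ array for the Purkinje cell list.

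Marker lists of other cell types are given by the same counts, to be read against 7.48% (passed) and 2.62% (called) of all genes for A+/G+ and 5.12% and 0.44% for A-/G+. Markers of neurons were unevenly spread over the arrays. Of 13 pan-neuronal genes, 0 passed the adjusted limit by limma or by the methods' t-test, with 2 for A+/G+ and 1 for A-/G+ at an unadjusted p under 0.05 in limma. The list includes L1cam and Ncam1, genes of antigens depleted from A-/G+ only. L1cam, whose direction that depletion favored, is 1 of the 2 for A+/G+. The mean level of the 13 genes was 10.42, 10.02 and 9.87 in A+/G+ replicates 1, 2 and 3. In A-/G+ replicates 1, 2 and 3 it was 9.17, 9.12 and 10.07, so that A-/G+ replicate 3 overlapped with A+/G+. Tubb3, neuronal tubulin, differed by 1.00 and Map2, a dendritic microtubule protein, by -0.35, neither passing (adjusted p = 0.446 and 0.0602, limma). The part of neurons in the differences of the neuronal members was not tested.

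Purkinje cell markers stood higher in A+/G+. Of 8 genes, 5 were called higher in A+/G+ and 1 (Pvalb) higher in A-/G+, and their mean level was 7.86 to 8.86 in A+/G+ and 5.86 to 6.11 in A-/G+. Pcp2 was 4.99 higher (limma, adjusted p = 0.00867), with A+/G+ replicate 1 the highest array, as it was for the neurofilament chains and for the pan-neuronal mean. Calb1 and Car8 were well above background on 0 of 3 A-/G+ arrays, whereas Ppp1r17 was well above background on 0 of 6 arrays. On A-/G+ replicate 3 the Purkinje mean was the lowest of the 6 arrays, 5.86, while the granule neuron mean was the highest, 9.64, against 8.11 to 9.02 on the other arrays. Of the 6 granule neuron genes, 0 passed as higher in A+/G+ and 1 (Pax6) as higher in A-/G+, and Atoh1 and Neurod1 did not pass (adjusted p = 0.263 and 0.820, limma). Of 4 cholinergic and cranial motor neuron genes, Chat and Isl1 were well above background on 0 of 6 arrays and Slc18a3 on 2. The other gene is not reported here, so no count is given for this list.

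Markers of other cells that hold desmin, synemin, vimentin or GFAP also differed between the fractions in part. In all 10 smooth muscle and pericyte genes the A+/G+ mean was the higher, 4 passing the adjusted limit and 2 called (Rgs5 and Anpep), and their mean level was 7.56 to 7.89 in A+/G+ and 5.42, 5.15 and 6.45 in A-/G+. Acta2 did not pass (adjusted p = 0.0883, limma), and Myh11, among those that passed, was well above background on 0 of 6 arrays. Of 6 multiciliated and ependymal genes, 5 passed and 4 were called higher in A+/G+, among them Foxj1 by 3.27 (adjusted p = 0.0216, limma), with mean levels of 8.69 to 9.35 in A+/G+ and 5.38 to 6.50 in A-/G+. Of 5 meningeal fibroblast genes, 1 passed as higher in A+/G+ (Lum), with mean levels of 13.28 to 13.52 and 10.56 to 12.21, and Col1a1 and Col1a2 did not pass. Of 8 endothelial genes, 1 passed (Cdh5), with mean levels of 8.35 to 8.74 and 5.74 to 8.15, the highest A-/G+ array being replicate 3. The part of these cells in the levels of Des, Synm, Vim or Gfap was not tested.

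Bergmann glial genes had the direction of Nes. All 7 passed as higher in A-/G+ and 5 were called, with mean levels of 8.16 to 8.53 in A+/G+ and 10.80 to 11.32 in A-/G+, including Gdf10 with a difference of -3.00 (adjusted p = 0.00745, limma) and Hopx with -1.42 (adjusted p = 0.00890, limma). The 5 called genes are ones that the paper itself named as higher in A-/G+ on these same arrays. Their count is therefore not an independent result. The 12 astroglial genes were mixed: 4 passed as higher in A+/G+, 1 of them called (Gja1, the gap junction protein connexin 43), and 1 as higher in A-/G+ (Aldh1l1). The list includes the genes of both sorting antigens, and Atp1b2, whose direction the sort itself favored, is 1 of the 4. Their mean level was 12.78 to 12.96 in A+/G+ and 11.95 to 12.62 in A-/G+. Of 6 microglial genes, 0 passed in either direction by limma or the methods' t-test (1 higher in A+/G+ at an unadjusted p under 0.05 in limma), and of 5 oligodendrocyte lineage genes 2 passed as higher in A+/G+, with Olig2 called (adjusted p = 0.00389, limma), and 1 as higher in A-/G+ (Mbp).

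Genes of the wider filament machinery were counted in the same way. Of 48 genes for other intermediate filaments, linkers, chaperones and turnover, and kinases, 2 passed as higher in A+/G+ and 1 as higher in A-/G+, against 7.48% and 5.12% of all genes, and none was called. Lmna, which encodes the nuclear lamins A and C, was 1.03 higher in A+/G+ cells (limma, adjusted p = 0.0258), the only one of 19 other filament genes to pass, and the keratin genes among them did not. Of the 19, 6 were well above background on no array, all of them keratin genes. Hspb1, a small heat shock protein that binds filaments, was 1.60 higher in A+/G+ cells (limma, adjusted p = 0.0207), 1 of 10 chaperone and turnover genes. Plec, whose product plectin links filaments to junctions and other cytoskeletal networks, was higher in A-/G+, with levels of 11.39, 11.46 and 11.53 in A+/G+ and 11.95, 12.19 and 12.11 in A-/G+ and a difference of -0.62 (adjusted p = 0.0200, limma). Of the 10 filament kinase genes, 0 passed by limma or the methods' t-test, with 1 for A+/G+ and 4 for A-/G+ at an unadjusted p under 0.05 in limma.

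Genes with the profile most like that of a member were found among 11330 genes well above background on all 6 arrays, by the root mean square distance of log2 levels over the 6 arrays after each profile was centred on its median. Closest to Gfap were Adora2b (distance 0.168), Gja1 (0.375) and Angpt2 (0.378), with differences of 2.93, 3.03 and 2.64. Adora2b encodes an adenosine receptor and Angpt2 an angiopoietin. Closest to Vim were Lonrf1 (0.0498), Arhgap21 (0.0672) and Mcc (0.0811), all with A-/G+ replicate 3 below the other A-/G+ arrays. Closest to Nefl were Hbb-b2, an adult beta globin gene (0.537), Higd1b (0.545) and Chst1 (0.576). Nefl itself was well above background on only 2 of 3 A-/G+ arrays, so that genes with an A-/G+ array at background, as Nefl had, were not among the candidates. These likenesses rest on 6 arrays of 2 fractions and are descriptions.

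**Figure D4:**
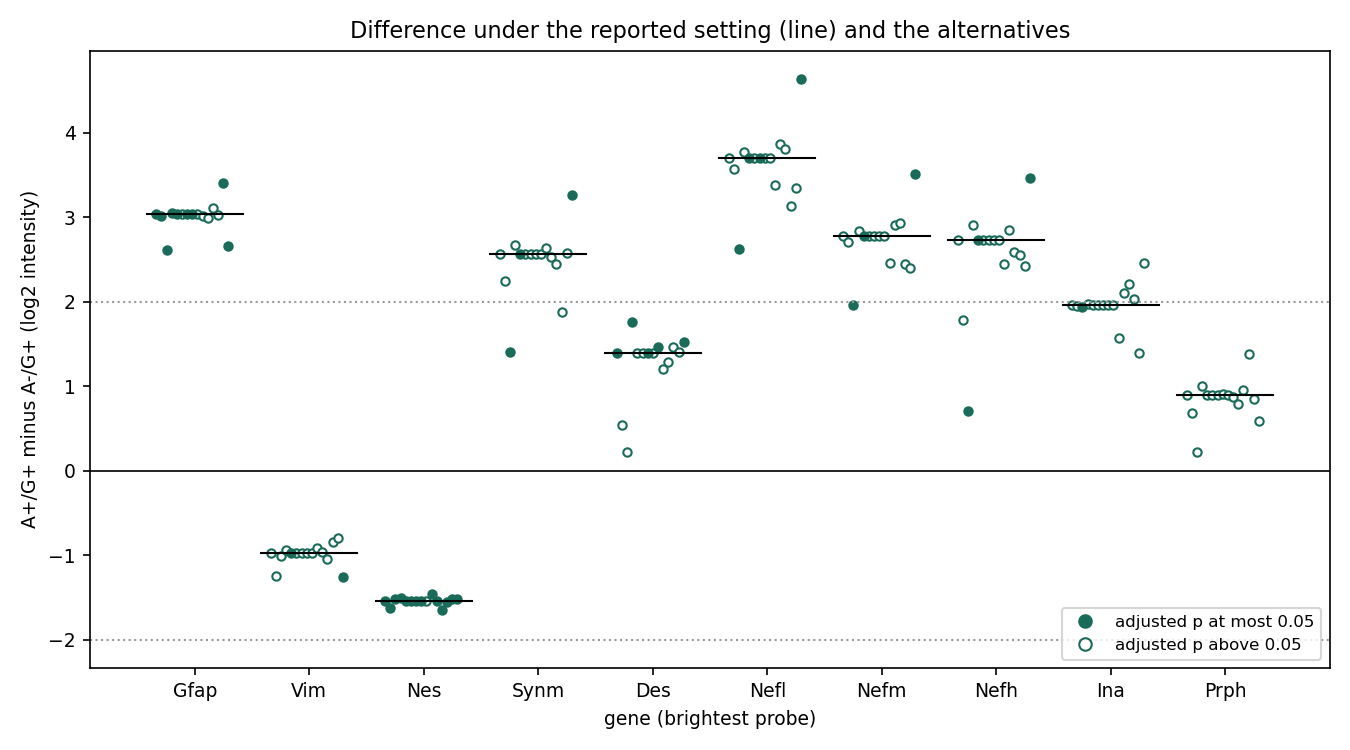
Difference A+/G+ minus A-/G+ (log2 intensity) of the brightest probe of each member under the reported setting (line) and under the alternative settings and the fits without 1 array (points), filled where the adjusted p was at most 0.05; dotted lines mark a 4-fold difference. Gfap stayed between 2.62 and 3.41 and Nes between -1.65 and -1.46, and no member changed sign.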

How the data were processed

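Gene expression was measured on 6 Agilent single-dye arrays, 3 per fraction. The authors deposited the scanner intensity of each spot, background-corrected by Feature Extraction 10.7.3.1 per the file headers, and a log2 table that they had quantile normalized. Here the intensities were taken to log2, control spots and outlier-flagged spots were left out, arrays were quantile normalized and spots of 1 probe averaged. Fractions were compared with limma 3.58.1 in R 4.3.3 over all 55681 probes with Benjamini-Hochberg adjustment. The limits (adjusted p of at most 0.05, medians at least 4-fold apart) are those of the study's methods, which used Student's test. The script was tested on simulated data.

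A gene is given by its probe with the highest mean over the 6 arrays. Named are all members with their probes, the sorting antigens, of each filament list the called genes or else up to 2 with the largest difference past the adjusted p, of each marker list the first 2 genes and up to 3 called ones, and the 3 genes most like Gfap, Vim and Nefl. Where a count was 5 or fewer, genes outside this rule are named after their values were seen (Ppp1r17, Pvalb, Pax6, Isl1, Lum, Aldh1l1, Mbp). A marker gene that the rule names is not reported here. Members and lists were chosen with earlier results of these data known. Probe positions are those of the array annotation on mm9. All 10 gene names were found in RefSeq (GRCm38.p6), which gave the promoter stretches. P-values weigh a difference against the spread between 3 pooled samples per fraction, and limma draws the variance of each probe toward that of all probes. They do not cover variation between animals or slides, and the number of arrays limits the precision. Alternatives changed the normalization (75th percentile alignment), the background step (normexp, offset 50), the values (the authors' log2 table), the probes tested (those well above background on at least 3 arrays), the test (the methods' t-test), the variance (trend and robust), the flagged spots (kept), the value of a gene (mean of its probes), the design (a block for the replicate number) and the arrays (1 left out at a time).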

Additional observations from a re-analysis of the deposited data

How the results depend on the processing

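By its brightest probe, no member changed direction under the alternatives run, with no value for Des under the filter on dim probes. Sizes did change: with normexp the difference was 2.62 for Nefl, 1.97 for Nefm, 1.40 for Synm, 0.71 for Nefh and 0.22 for Des and Prph. The second Nefh probe, above background on no array, went from 0.24 to -0.99 with 75th percentile alignment, -0.02 with normexp and -0.08 without A+/G+ replicate 1. Members called higher in A+/G+ numbered 1 as reported, 4 with normexp (Gfap, Nefl, Nefm and Ina), 2 with the authors' table (Gfap and Des), 5 with the filter on dim probes (Gfap, Synm, Nefl, Nefm and Nefh), 2 with trend and robust variance (Gfap and Nefl), and 0 with the methods' t-test. Members past the adjusted p and higher in A+/G+ numbered 2 as reported, 1 with 75th percentile alignment, 6 with normexp, 5 with the filter and 0 with the t-test, and those higher in A-/G+ 1 as reported and 2 with the filter (Vim and Nes). Over all probes, 851 calls for A+/G+ and 222 for A-/G+ became 604 and 938 with that alignment, 234 and 48 with normexp, and 487 and 121 with the t-test. Of the filament-related genes, 2 and 1 passed as reported, 4 and 3 with normexp, 0 higher in A+/G+ with the t-test, and 3 higher in A-/G+ with the filter. The filter tests fewer probes; the cause of the other changes was not tested.

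With each array left out in turn, called members higher in A+/G+ ranged from 0 to 5, members past the adjusted p from 0 to 6 (higher in A+/G+) and from 1 to 2 (higher in A-/G+), calls over all probes from 328 to 1448 and from 75 to 481, and filament-related genes from 0 to 6 and from 0 to 4. The highest values were those without A-/G+ replicate 3. By its brightest probe, no member was called without A-/G+ replicate 1 or without any single A+/G+ array.

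The replicate numbers are shared by the fractions, but same-numbered arrays did not deviate together in every case (correlations of 0.196, 0.113 and -0.114 over 17951 probes), so the numbers were not taken as pairs. With the replicate number as a block, 0 members and 0 filament-related genes passed the adjusted p and 0 probes were called in either direction (adjusted p of Nes 0.0647 and of Gfap 0.0777, limma). At an unadjusted p under 0.05 in that fit, 6 members favored A+/G+ and 1 favored A-/G+. Of all probes, 9.62% and 11.3% did so, which are shares over probes and not over genes.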
